A study of Homo sapiens with 12 samples.

Results

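The transcripts described here are 36 genes of amino acid supply and use. They are 19 cytosolic aminoacyl-tRNA synthetases, 5 amino acid transporters, 7 enzymes of amino acid metabolism, and ATF4 with 4 stress genes that respond to it. The genes were taken by symbol from a list of these functions, which was drawn up with earlier results of these data known, by a rule that uses no measured value, and all 36 were found among the 57815 genes measured per library. The cells were A549, H2023 and H460, human lung cancer lines that carry a KEAP1 mutation and so hold constantly active NRF2, and their RNA was sequenced. A549 and H2023 are labelled lung adenocarcinoma and H460 is labelled large cell carcinoma. Each line was transfected either with a control siRNA (2 libraries, called control 0 and control 1) or with an NRF2 siRNA (1 library with siRNA 28 and 1 with siRNA 30), and RNA was collected after 48 h. The different NRF2 siRNAs served as the duplicates of the knockdown in the study's methods, so the spread within a knockdown group includes the difference between siRNAs. A549 was grown in high-glucose medium and its RNA was depleted of rRNA, whereas H2023 and H460 were grown in low-glucose medium and their RNA was selected for polyA. These differences of line, medium and protocol cannot be told apart. Values are FPKM (fragments mapped to a transcript, scaled to its length and to the library's total), a level per length. They do not give the number of reads behind a value, and read counts were not used here.

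Aminoacyl-tRNA synthetases join each amino acid to its tRNA. When an amino acid runs short, uncharged tRNA activates the kinase GCN2, which phosphorylates the initiation factor eIF2, slows translation in general and favours translation of the transcription factor ATF4. ATF4 then raises transcripts for amino acid transporters, asparagine synthetase and many cytosolic synthetases, and, under prolonged stress, for DDIT3 (CHOP) and TRIB3. NRF2, encoded by NFE2L2, is the transcription factor that KEAP1 holds down in normal cells. It drives glutathione synthesis, which draws on cysteine and glutamate.

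For 31 of the 36 genes a window of the promoter was at hand, from 250 bases before to 50 bases after an annotated start (RefSeq, GRCh38.p14). The windows of LARS1, VARS1, YARS1, PYCR1 and GPT2 were not used here. The windows were searched on both strands for TGATGNAA, the core of the C/EBP-ATF element that ATF4 pairs bind, and for TGACNNNGC, the core of the antioxidant response element that NRF2 binds. TGATGNAA was present in 11 of 31 members (35.5%), against 3.62% of all 35116 windows and 4.46% of the 27305 genes with a window. Its narrower form TGATGCAA, which is contained in it, was present in 8 of 31 members (25.8%), against 0.866% of all windows and 1.08% of genes. TGACNNNGC was present in 10 of 31 members (32.3%), against 13.3% of all windows and 16.1% of genes, and its narrower form TGACTCAGC in 0 of 31, against 0.561% of windows and 0.689% of genes. Of the 16 synthetases with a window, 7 held TGATGNAA, whereas of 14 mitochondrial synthetases with a window 1 did. A match is a run of letters and not a measured binding site. The members were listed partly as genes that ATF4 is known to raise, and the windows hold no value of these libraries. The shares are therefore no result of the knockdown. The windows of SLC1A5, ASNS, IARS1 and SLC7A1 are shown because, of the genes that held TGATGNAA, they had the smallest p in the average effect over the 3 lines, and the window of ATF4 because it is the factor in question. Capitals mark the TGATGNAA match, which in IARS1 lies on the opposite strand and so reads TTGCATCA. The ATF4 window held no match, and SLC1A5, ASNS and ATF4 each have further windows that are not shown. In coordinates of the window's build, the 5 windows are SLC1A5 (chr19:46784765-46785064, minus strand), ASNS (chr7:97872359-97872658, minus strand), IARS1 (chr9:92293648-92293947, minus strand), SLC7A1 (chr13:29595639-29595938, minus strand) and ATF4 (chr22:39520309-39520608, plus strand).
SLC1A5: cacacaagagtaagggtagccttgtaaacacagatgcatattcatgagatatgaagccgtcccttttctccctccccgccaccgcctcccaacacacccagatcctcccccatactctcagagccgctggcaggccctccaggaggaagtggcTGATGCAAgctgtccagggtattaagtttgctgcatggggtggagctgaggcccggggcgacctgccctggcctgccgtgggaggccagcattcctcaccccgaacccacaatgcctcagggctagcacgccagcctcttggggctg
ASNS: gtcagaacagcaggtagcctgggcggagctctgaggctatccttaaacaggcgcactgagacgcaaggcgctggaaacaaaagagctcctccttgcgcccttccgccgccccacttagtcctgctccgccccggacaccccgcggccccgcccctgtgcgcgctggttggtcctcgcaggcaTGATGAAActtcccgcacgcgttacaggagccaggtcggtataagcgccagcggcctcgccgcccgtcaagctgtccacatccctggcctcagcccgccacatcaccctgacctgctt
IARS1: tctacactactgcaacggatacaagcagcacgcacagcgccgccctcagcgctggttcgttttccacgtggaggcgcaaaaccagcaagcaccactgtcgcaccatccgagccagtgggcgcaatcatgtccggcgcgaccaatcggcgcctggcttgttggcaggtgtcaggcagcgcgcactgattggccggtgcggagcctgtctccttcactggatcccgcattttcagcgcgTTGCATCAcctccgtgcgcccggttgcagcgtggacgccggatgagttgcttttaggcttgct
SLC7A1: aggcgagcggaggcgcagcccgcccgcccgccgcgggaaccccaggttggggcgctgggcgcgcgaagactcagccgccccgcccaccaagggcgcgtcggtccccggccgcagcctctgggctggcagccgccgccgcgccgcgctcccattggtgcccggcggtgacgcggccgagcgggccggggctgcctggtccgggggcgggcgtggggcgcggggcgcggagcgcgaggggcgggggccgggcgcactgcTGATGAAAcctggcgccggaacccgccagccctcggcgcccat
ATF4: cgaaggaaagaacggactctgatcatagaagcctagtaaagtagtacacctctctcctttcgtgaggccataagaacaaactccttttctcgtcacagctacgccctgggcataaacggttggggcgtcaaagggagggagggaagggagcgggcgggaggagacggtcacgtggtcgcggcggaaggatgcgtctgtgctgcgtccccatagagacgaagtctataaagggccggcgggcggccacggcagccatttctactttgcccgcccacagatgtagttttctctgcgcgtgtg

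Positive positions begin at the annotated start, and no base is numbered 0. The first base of the match was at -97 in SLC1A5, -68 in ASNS, -13 in IARS1 and 8 in SLC7A1. The SLC7A1 window also held TGACNNNGC, with its first base at -85. In TARS1, CARS1, MARS1, GARS1, NARS1 and SLC1A4 the TGATGNAA match began within 33 bases of the start on either side, and in AARS1 it began at -187. TGACNNNGC was present without TGATGNAA in the windows of KARS1, WARS1, SLC7A5, TRIB3, VLDLR and CBS.

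The siRNAs lowered their target in every line. NFE2L2 was at 34.5 ± 5.16 FPKM in A549 controls and 6.58 ± 1.79 FPKM after the knockdown (SD, n = 2 each). Its log2 fold change was -2.24 there, -3.86 in H2023 cells and -3.60 in H460 cells. All 12 libraries had KRT8 and KRT18, keratins of simple epithelium, at 298 FPKM or more, whereas the lung lineage markers NKX2-1, SFTPB and SFTPC were under 1 FPKM in every library and NAPSA reached at most 1.25 FPKM. In H460 the epithelial markers EPCAM and CDH1 were at most 1.19 FPKM. Among markers of blood, vessel and connective tissue cells, CD68 was at 14.0 to 57.7 FPKM in all lines, COL1A1 and COL3A1 reached 8.56 FPKM, and PTPRC, CD3E and VWF stayed under 1 FPKM. Some markers moved with the knockdown. COL1A1 went from 1.81 and 2.06 FPKM to 5.94 and 5.81 FPKM in H460, and CD68 from 14.0 and 15.6 FPKM to 26.6 and 30.7 FPKM in A549. In H2023 CDH1 went from 12.6 and 8.05 FPKM to 65.0 and 58.3 FPKM and KRT8 from 1474 and 1303 FPKM to 3101 and 2919 FPKM. CD68 went the other way in H460, from 36.6 and 39.2 FPKM to 16.5 and 29.2 FPKM. KRT8 rose there too, from 553 and 673 FPKM to 990 and 1723 FPKM. The part of these markers in the results was not tested. Transcripts of the mitochondrial genome took 8.56% and 13.1% of the FPKM sum in the H460 controls and 20.8% and 26.0% in the H460 libraries with NRF2 siRNA. They took 12% and 18.1% against 17.3% and 22.8% in H2023, and 0.892% to 1.56% in A549. With these transcripts taken out of the scaling, the median log2 fold changes of the members given below were -0.37 in A549, -0.07 in H2023 and -0.74 in H460, when the median of all genes was -0.07, 0.10 and 0.12.

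The H460 control libraries differed in many of these genes. Control 0 was above control 1 for 32 of the 36 members in H460, by a median of 0.86 on the log2(FPKM + 1) scale, whereas the median gap over all 13446 genes tested was 0.04. For 15 members the gap was over 1, which was true of 1.94% of all genes. DDIT3 stood at 128 FPKM in H460 control 0 and 10.4 FPKM in control 1. TRIB3 stood at 113 and 26.1 FPKM, ASNS at 62.8 and 23.8 FPKM, and ATF4 at 497 and 247 FPKM. In A549 and H2023 no member had a gap over 1, and the median gaps were 0.06 and 0.13. Log2 fold changes in H460 are therefore followed below by the value without control 0.

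**Figure D1:**
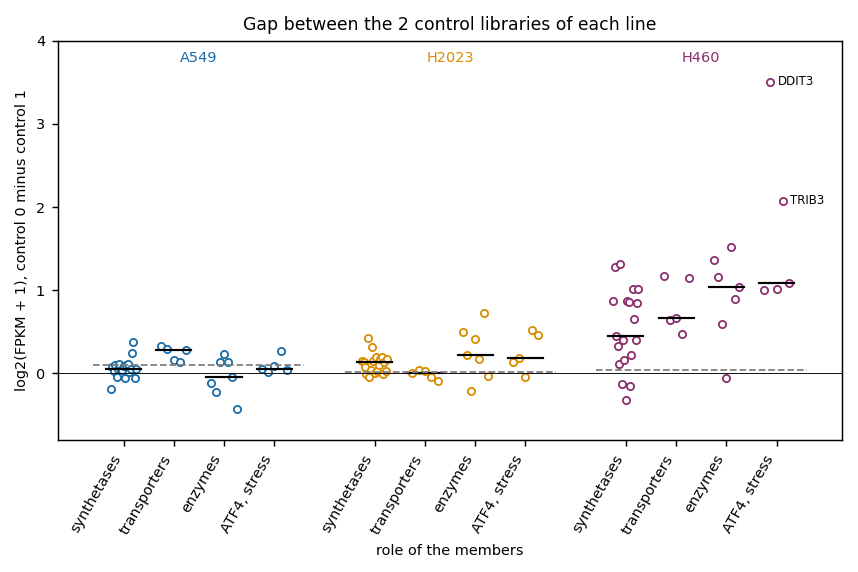
Difference in log2(FPKM + 1) between control 0 and control 1 for each of the 36 members, by line and role. Each circle is 1 gene, black bars are medians over the genes of a role and dashed lines are medians over all genes tested in the line. In H460 the medians by role lie between 0.45 and 1.09, with DDIT3 at 3.5 and TRIB3 at 2.08.

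Lowering NRF2 was compared with control siRNA in each line to learn which transcripts depend on it. The lowest fold changes of the members were in H460. There, 31 of 36 had a log2 fold change below 0, against 50.5% of all genes tested, and the median was -0.90 (all genes -0.01). By limma's moderated test on log2(FPKM + 1) with Benjamini-Hochberg adjustment over all genes, 7 of the 36 passed an adjusted p of 0.05 in H460, and each was lower. They were SLC7A5, SLC7A1, SLC1A5, KARS1, IARS1, EPRS1 and ASNS. Of all genes tested in H460, 6.86% were called lower and 7.12% higher. In 25 members both H460 knockdown libraries lay below both controls, against 31.6% of all genes, and in 4 (DDIT4, VLDLR, SLC38A2 and QARS1) above both, against 31.1%. Without control 0 the H460 median was -0.52, with 28 members below 0, and no gene of 13141 tested passed the threshold. At an unadjusted p under 0.05, 8 members were then lower and 3 higher, and 976 and 1299 of all genes. Without control 1 the median was -1.26, and 5 genes passed, none of them a member.

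In A549 and H2023 no member passed the threshold, in fits that called 0.554% and 0.583% of all genes lower and 0.122% and 0.327% higher. At an unadjusted p under 0.05, 12 members were lower and 1 higher in A549, and 7 lower and 2 higher in H2023. Of all genes, 4.99% were lower and 8.27% higher at that level in A549, and 6.68% and 10.2% in H2023. Log2 fold changes were below 0 for 28 members in A549 (46.4% of all genes) and 22 in H2023 (48% of all genes). The median log2 fold change of the members was -0.28 in A549 and -0.16 in H2023, and the median of all genes was 0.02 in each. Both knockdown libraries lay below both controls for 23 members in A549 (20.5% of all genes) and for 13 in H2023 (22% of all genes). They lay above both controls for 4 members in A549 (25.2% of all genes) and 8 in H2023 (27% of all genes). The heat map of single libraries shows the A549 and H2023 controls close together and the H460 controls apart. In these bulk libraries, fewer cells with a high level and less RNA per cell cannot be told apart.

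**Figure D2:**
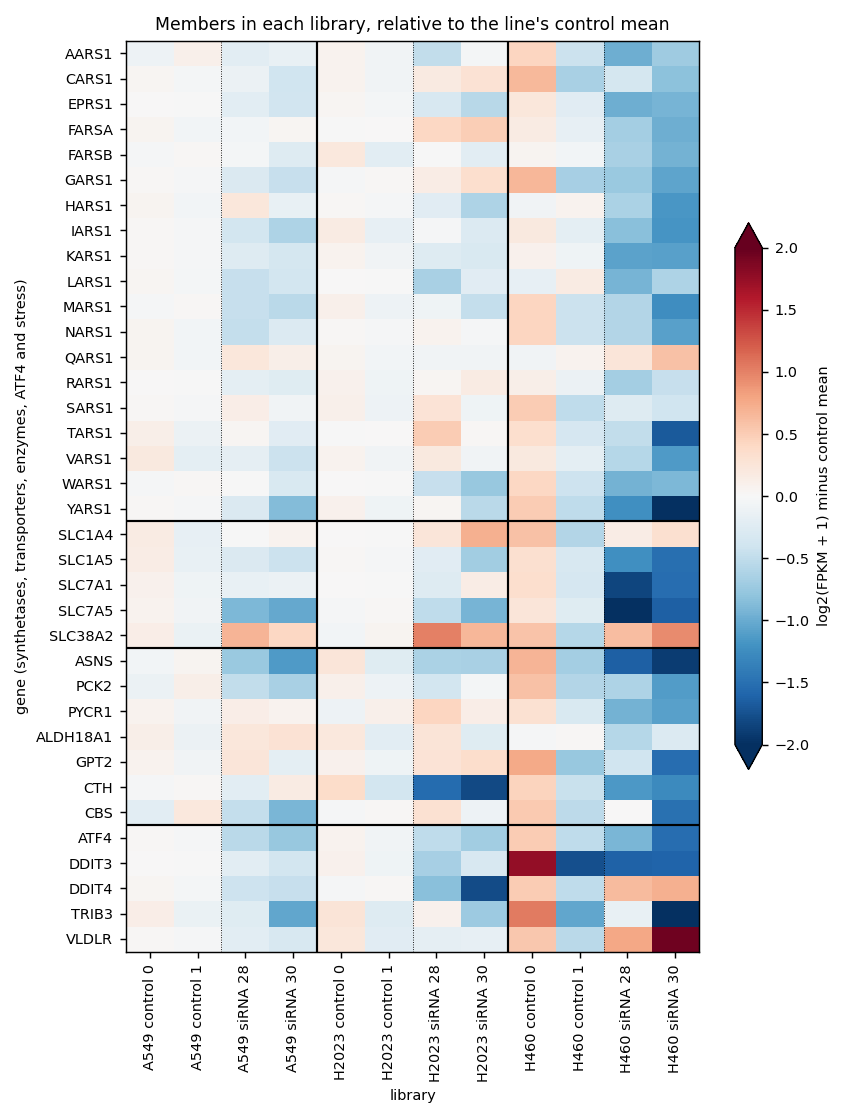
Level of each member in each of the 12 libraries, as log2(FPKM + 1) minus the mean of the line's control libraries. Rows are genes in the order synthetases, transporters, enzymes, and ATF4 with stress genes, and columns are libraries. Blue is below the line's control mean and red above it, and colours are cut at -2 and 2. SLC7A5 and ATF4 are blue in all 6 NRF2 siRNA libraries and SLC38A2 is red in all 6.

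The cytosolic synthetases had control means of 19.0 to 414 FPKM over the 3 lines. Their summed level was 3197 and 1998 FPKM in the H460 controls and 1560.4 and 1299 FPKM with siRNA 28 and siRNA 30. In A549 the sums were 1464 and 1402 FPKM against 1263 and 1162 FPKM. In H2023 they were 1840.5 and 1727 FPKM against 1808 and 1679.8 FPKM. The sums thus did not overlap between groups in A549 and H460 and did so in H2023. The 19 genes had a median log2 fold change of -0.26 in A549, of -0.11 in H2023 and of -0.85 in H460, where 18 of 19 were below 0. Without control 0 the H460 median was -0.65, with 16 of 19 below 0.

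KARS1, the lysyl-tRNA synthetase gene, which serves both the cytosol and the mitochondria (chromosome 16, 75661372 to 75682541, minus strand, GRCh37, the build of all gene positions below), differed least between the H460 controls of the synthetases that passed there. It stood at 121 and 108 FPKM in the controls and 54.1 and 53.4 FPKM with siRNA 28 and siRNA 30 in H460, and the groups did not overlap. Its log2 fold change there was -1.07 ± 0.21 (SE, limma adjusted p = 0.0288), and -0.99 without control 0. In A549 KARS1 was at 131 and 128 FPKM in the controls and 108 and 102 FPKM with siRNA 28 and siRNA 30, and in H2023 at 121 and 109.9 FPKM in the controls and 96.6 and 92.9 FPKM with siRNA 28 and siRNA 30. The knockdown libraries were again below both controls, with log2 fold changes of -0.31 (limma adjusted p = 0.39) and -0.28 (limma adjusted p = 0.412).

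EPRS1 joins both glutamate and proline to their tRNAs (chromosome 1, 220141942 to 220219872, minus strand). In H460 it was at 141 and 103 FPKM in the controls and 60.8 and 63.1 FPKM with siRNA 28 and siRNA 30. Both knockdown libraries were far below both controls, with a log2 fold change of -0.95 ± 0.24 (SE, limma adjusted p = 0.0476), and -0.73 without control 0. In A549 and H2023 the EPRS1 log2 fold changes were -0.30 and -0.43, from control means of 65.8 ± 0.804 and 82.0 ± 2.91 FPKM to 53.4 ± 4.73 and 60.8 ± 7.1 FPKM (SD, n = 2 each).

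IARS1, which charges isoleucine tRNA (chromosome 9, 94972489 to 95056136, minus strand), was at 94.8 and 71.4 FPKM in the controls and 45.7 and 35.9 FPKM with siRNA 28 and siRNA 30 in H460. Its log2 fold change there was -1.01 ± 0.25 (SE, limma adjusted p = 0.0471), and -0.80 without control 0. In A549 it was at 87.8 and 85.2 FPKM in the controls and 67.0 and 55.8 FPKM with siRNA 28 and siRNA 30, again without overlap, at a log2 fold change of -0.49. In H2023 the values overlapped, at 66.7 and 53.3 FPKM in the controls and 58.9 and 49.0 FPKM in the knockdown.

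YARS1, the tyrosine enzyme, had the largest mean log2 fold change of the synthetases over the 3 lines but did not pass in any single line. In H460 it was at 121 and 59.4 FPKM in the controls and 35.7 and 17.1 FPKM with siRNA 28 and siRNA 30, a log2 fold change of -1.73 ± 0.45 (SE, limma adjusted p = 0.0518), and -1.23 without control 0. In A549 it was at 41.5 and 40.1 FPKM in the controls and 33.0 and 21.9 FPKM with siRNA 28 and siRNA 30 and in H2023 at 92.4 and 82.2 FPKM in the controls and 89.5 and 59.4 FPKM with siRNA 28 and siRNA 30. The siRNA 30 library was lower than the siRNA 28 library in every line.

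WARS1, the tryptophan enzyme, was at 359 and 199 FPKM in the controls and 139 and 143 FPKM with siRNA 28 and siRNA 30 in H460. In H2023 it was at 92.9 and 91.1 FPKM in the controls and 66.7 and 54.0 FPKM with siRNA 28 and siRNA 30, and in A549 at 75.9 and 78.9 FPKM in the controls and 77.3 and 62.5 FPKM with siRNA 28 and siRNA 30. The groups were apart in H460 and H2023 and overlapped in A549, and the H460 log2 fold change was -0.92, or -0.50 without control 0. MARS1, the methionine enzyme, was at 195 and 107 FPKM in the controls and 96.0 and 60.7 FPKM with siRNA 28 and siRNA 30 in H460, at 144 and 125 FPKM in the controls and 127 and 96.3 FPKM with siRNA 28 and siRNA 30 in H2023, and at 95.2 and 99.3 FPKM in the controls and 70.5 and 66.4 FPKM with siRNA 28 and siRNA 30 in A549. Its log2 fold change in H460 was -0.91, or -0.47 without control 0. MARS1 overlaps DDIT3 on the opposite strand of chromosome 12 (MARS1 ends at 57911352 and DDIT3 begins at 57910371, GRCh37), and although the libraries were made with a strand-specific kit, whether the counting used the strand is not given in the sources used here, so the values of both genes are uncertain.

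LARS1, the leucine enzyme, was at 67.8 and 63.9 FPKM in the controls and 47.4 and 50.7 FPKM with siRNA 28 and siRNA 30 in A549. In H2023 it was at 49.9 and 49.7 FPKM in the controls and 31.5 and 42.4 FPKM with siRNA 28 and siRNA 30, and in H460 at 70.2 and 87.9 FPKM in the controls and 40.7 and 50.9 FPKM with siRNA 28 and siRNA 30. LARS1 was below both controls in the knockdown of all 3 lines, with a log2 fold change in H460 of -0.77, or -0.93 without control 0, and it was one of 3 synthetases, with HARS1 and QARS1, whose level was lower in control 0 than in control 1 of H460. HARS1, the histidine enzyme, was at 69.1 and 75.5 FPKM in the controls and 46.3 and 31.8 FPKM with siRNA 28 and siRNA 30 in H460, and -0.96 was its log2 fold change without control 0, against -0.89 with it. In H2023 HARS1 was at 25.8 and 25.1 FPKM in the controls and 21.5 and 16.2 FPKM with siRNA 28 and siRNA 30, and in A549 at 35.2 and 32.4 FPKM in the controls and 39.5 and 30.4 FPKM with siRNA 28 and siRNA 30. HARS1 was thus lower in both knockdown libraries of H460 and H2023, and in A549 the groups overlapped.

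Phenylalanyl-tRNA synthetase is built of an alpha subunit (FARSA) and a beta subunit (FARSB). FARSB was at 45.5 and 41.9 FPKM in the controls and 27.5 and 22.1 FPKM with siRNA 28 and siRNA 30 in H460, at 33.5 and 24.7 FPKM in the controls and 28.8 and 24.7 FPKM with siRNA 28 and siRNA 30 in H2023, and at 42.1 and 43.6 FPKM in the controls and 41.5 and 35.5 FPKM with siRNA 28 and siRNA 30 in A549. Its groups did not overlap in A549 and H460 and did in H2023, and its log2 fold change in H460 was -0.80, or -0.74 without control 0. FARSA is taken up with the differences between lines. The other synthetases that did not pass in any test had log2 fold changes in H460 of -1.08 (TARS1, threonine) to -0.33 (SARS1, serine), apart from QARS1, the glutamine enzyme, at 0.41. Without control 0, SARS1 was at 0.18 and CARS1, the cysteine enzyme, at 0.06, so that both changed sign. QARS1 was then at 0.34, and AARS1, GARS1, NARS1, RARS1, TARS1 and VARS1 were at -0.75 (TARS1) to -0.24 (GARS1). TARS1 was at -0.49 without siRNA 30. GARS1, the glycine enzyme, was at 591 and 237 FPKM in the controls and 224 and 179 FPKM with siRNA 28 and siRNA 30 in H460. Its control 1 lay close to the siRNA 28 library, and its log2 fold change was -0.90 with all libraries.

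Of the synthetases, 7 (EPRS1, IARS1, KARS1, LARS1, MARS1, QARS1 and RARS1) are subunits of the multisynthetase complex, a large assembly of synthetases and scaffold proteins. Over the A549, H2023 and H460 comparisons their median log2 fold changes were -0.31, -0.28 and -0.91. The 12 synthetases outside it had medians of -0.17, 0.04 and -0.85. The H460 medians without control 0 were -0.73 in the complex and -0.58 outside it. The 3 synthetases called in H460 were all in the complex. The H460 controls were also closer together for its subunits, with a median gap of 0.22, than for the other 12, with a median gap of 0.85. Whether the complex and the other synthetases differ was not tested.

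**Figure D3:**
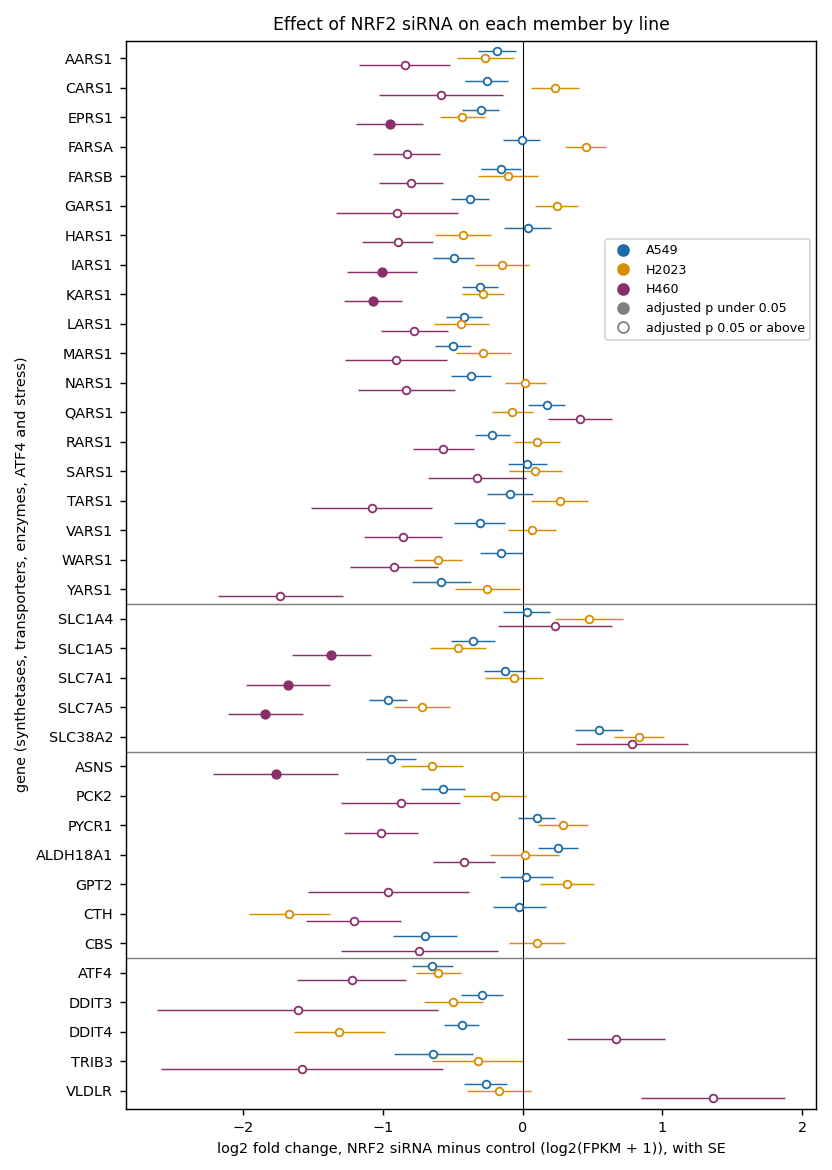
Log2 fold change of each member (NRF2 siRNA minus control, on the log2(FPKM + 1) scale) in A549, H2023 and H460, with its standard error as the bar. Filled circles passed an adjusted p of 0.05 and open circles did not. The 7 filled circles are all from H460 and lie between -1.84 and -0.95.

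Among the transporters, SLC7A5, SLC7A1 and SLC1A5 fell in H460, and no transporter passed in A549 or H2023. SLC7A5 (LAT1), which exchanges large neutral amino acids such as leucine across the plasma membrane (chromosome 16, 87863629 to 87903113, minus strand), had the largest mean change of the members over the 3 lines. SLC7A5 was at 269 and 246 FPKM in the controls and 138 and 126 FPKM with siRNA 28 and siRNA 30 in A549 cells, and at 694 and 719 FPKM in the controls and 498 and 369.6 FPKM with siRNA 28 and siRNA 30 in H2023 cells. The H460 values were 177 and 127 FPKM in the controls and 35.4 and 47.7 FPKM with siRNA 28 and siRNA 30. All 6 knockdown libraries were below both controls of their line. The log2 fold change was -1.84 ± 0.27 in H460 (SE, limma adjusted p = 0.0188), -0.96 ± 0.14 in A549 (limma adjusted p = 0.0705) and -0.72 ± 0.20 in H2023 (limma adjusted p = 0.183). Without control 0 it was -1.6 in H460.

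SLC7A1 (CAT1), the importer of arginine and lysine (chromosome 13, 30083551 to 30169825, minus strand), was at 42.4 and 26.5 FPKM in the controls and 8.70 and 11.0 FPKM with siRNA 28 and siRNA 30 in H460. Both knockdown libraries lay far below both controls, with a log2 fold change of -1.68 ± 0.30 (SE, limma adjusted p = 0.0247), and -1.35 without control 0. A549 held it at 9.22 and 8.12 FPKM in the controls and 7.72 and 7.93 FPKM with siRNA 28 and siRNA 30, and H2023 at 18.6 and 18.2 FPKM in the controls and 15.2 and 20.4 FPKM with siRNA 28 and siRNA 30. There the levels were within or close to the controls, with log2 fold changes of -0.13 and -0.06. SLC1A5 (ASCT2), a glutamine transporter (chromosome 19, 47278140 to 47291851, minus strand), was at 153 and 97.7 FPKM in the controls and 51.6 and 42.4 FPKM with siRNA 28 and siRNA 30 in H460, a log2 fold change of -1.37 ± 0.28 (SE, limma adjusted p = 0.0314), and -1.05 without control 0. In A549 it was at 105 and 85.5 FPKM in the controls and 77.3 and 70.5 FPKM with siRNA 28 and siRNA 30 and in H2023 at 157 and 154 FPKM in the controls and 133 and 95.5 FPKM with siRNA 28 and siRNA 30, with the knockdown below both controls in each.

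SLC38A2 (SNAT2), which takes up small neutral amino acids with sodium (chromosome 12, 46751971 to 46766556, minus strand), went the other way. SLC38A2 was at 138 and 114 FPKM in the controls and 201 and 167 FPKM with siRNA 28 and siRNA 30 in A549 cells, and at 138 and 148 FPKM in the controls and 289 and 227 FPKM with siRNA 28 and siRNA 30 in H2023 cells. The H460 values were 376 and 169 FPKM in the controls and 388 and 486 FPKM with siRNA 28 and siRNA 30. All 6 knockdown libraries were above both controls of their line, although siRNA 28 exceeded control 0 in H460 by little. For SLC38A2 the A549, H2023 and H460 log2 fold changes were 0.54 ± 0.17, 0.83 ± 0.18 and 0.78 ± 0.40 (SE), with limma adjusted p-values of 0.284, 0.126 and 0.223. The H460 value was 1.36 without control 0 and 0.21 without control 1, so its size rested on which control was kept. SLC1A4 (ASCT1), a transporter of alanine, serine and cysteine, did not pass in any line, with log2 fold changes of 0.03, 0.48 and 0.23, the last of which was 0.82 without control 0 and -0.35 without control 1.

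ASNS, asparagine synthetase and a much used marker of ATF4 activity (chromosome 7, 97480989 to 97501854, minus strand), was the one enzyme that passed in a single line. ASNS was at 37.4 and 40.7 FPKM in the controls and 22.9 and 17.2 FPKM with siRNA 28 and siRNA 30 in A549 cells, and at 31.6 and 22.1 FPKM in the controls and 16.6 and 16.4 FPKM with siRNA 28 and siRNA 30 in H2023 cells. The H460 values were 62.8 and 23.8 FPKM in the controls and 11.8 and 9.64 FPKM with siRNA 28 and siRNA 30. The knockdown was below both controls in each line. The log2 fold change was -1.77 ± 0.45 in H460 (SE, limma adjusted p = 0.0485), and -1.09 without control 0. In A549 it was -0.94 ± 0.18 (limma adjusted p = 0.13) and in H2023 -0.65 ± 0.22 (limma adjusted p = 0.247).

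CTH, the enzyme that releases cysteine from cystathionine, was at 34.2 and 20.4 FPKM in the controls and 8.46 and 6.87 FPKM with siRNA 28 and siRNA 30 in H2023, a log2 fold change of -1.67 ± 0.29 (SE, limma adjusted p = 0.0886). In H460 it was at 30.5 and 16 FPKM in the controls and 9.48 and 8.55 FPKM with siRNA 28 and siRNA 30, and in A549 at 3.41 and 3.56 FPKM in the controls and 2.89 and 4.00 FPKM with siRNA 28 and siRNA 30. The H2023 and H460 groups did not overlap, whereas in A549, where the level was low, they did. The H460 log2 fold change was -1.21, or -0.76 without control 0. CBS, which makes cystathionine, was at -0.70 in A549 on the log2 scale, at 0.11 in H2023 and at -0.74 in H460 (-0.22 without control 0 and 0.01 without siRNA 30), and its groups overlapped in the latter 2 lines. PYCR1 and ALDH18A1, enzymes of proline synthesis, were at -1.01 (limma adjusted p = 0.0522) and -0.42 in H460, at -0.71 and -0.45 there without control 0, at 0.10 and 0.25 in A549, and at 0.29 and 0.01 in H2023. PYCR1 was below both controls in H460 and above both in A549 and H2023. PCK2, the mitochondrial phosphoenolpyruvate carboxykinase, and GPT2, the mitochondrial alanine transaminase, had log2 fold changes of -0.87 and -0.96 in H460, and -0.29 and -0.20 without control 0. Without siRNA 30 the H460 values of PCK2 and GPT2 were -0.62 and -0.40, and without control 1 both lay further below 0. They were at -0.57 and 0.03 in A549 and at -0.20 and 0.32 in H2023, where GPT2 was above both controls.

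ATF4 itself (chromosome 22, 39915700 to 39918688, plus strand) was at 203 and 196 FPKM in the controls and 138 and 117 FPKM with siRNA 28 and siRNA 30 in A549. In H2023 it was at 290.0 and 265 FPKM in the controls and 195 and 170.3 FPKM with siRNA 28 and siRNA 30, and in H460 at 497 and 247 FPKM in the controls and 185 and 121 FPKM with siRNA 28 and siRNA 30. All 6 knockdown libraries were below both controls of their line, and siRNA 30 gave the lower value in each. For ATF4 the A549, H2023 and H460 log2 fold changes were -0.65 ± 0.14, -0.60 ± 0.16 and -1.22 ± 0.39 (SE), with limma adjusted p-values of 0.18, 0.171 and 0.0831, so that ATF4 passed in no single line. Without control 0 the H460 value was -0.72. ATF4 activity is set largely by translation, and its protein was not analysed here.

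**Figure D4:**
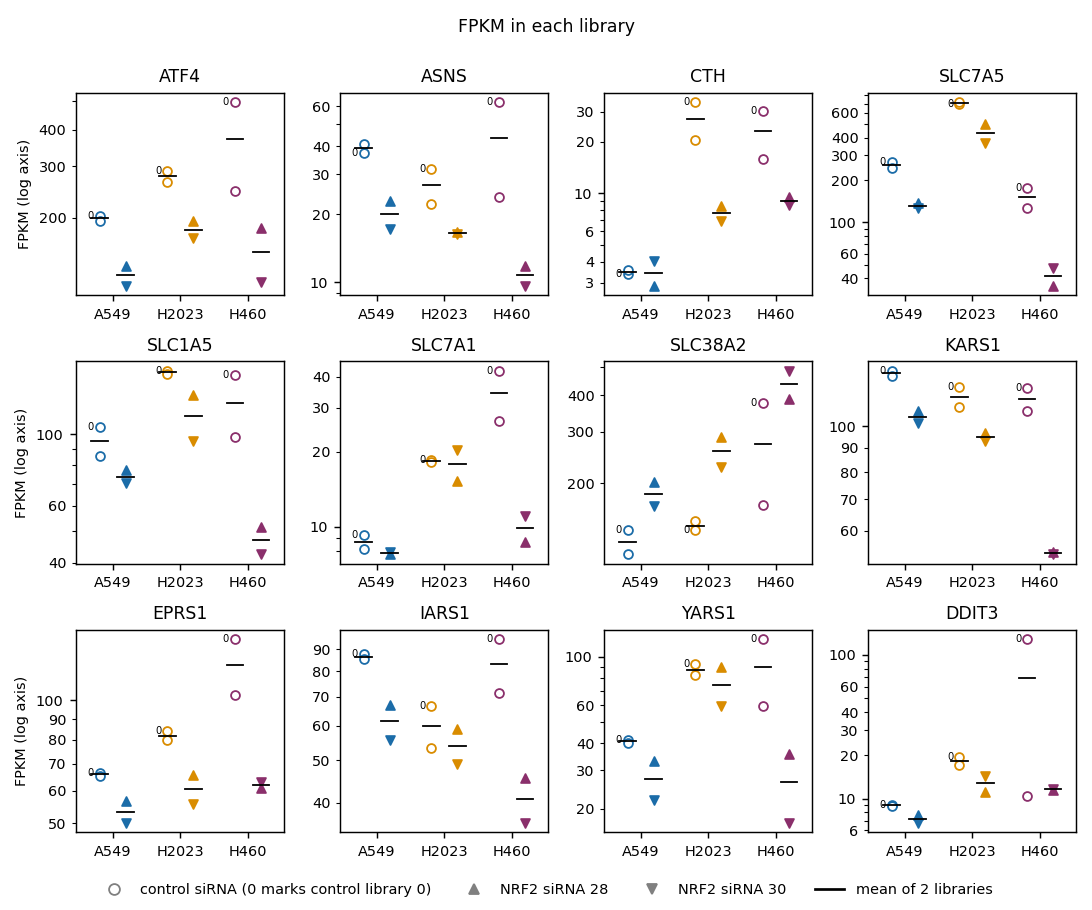
FPKM of 12 members in each library, on log axes that differ between panels. Open circles are control siRNA libraries (0 marks control 0), triangles are NRF2 siRNA 28 (up) and 30 (down), and bars are means of 2 libraries. DDIT3 in H460 is at 128 FPKM in control 0 and between 10.4 and 11.7 FPKM in the other H460 libraries.

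DDIT3 (CHOP), a transcription factor induced late in the stress response, had a log2 fold change of -1.61 ± 1.0 (SE) in H460 with all libraries. It was 0.14 without control 0 and -3.36 without control 1. The DDIT3 knockdown libraries in H460, at 11.5 and 11.7 FPKM, lay between the controls and just above control 1. In A549 DDIT3 was at 9.02 and 8.94 FPKM in the controls and 7.62 and 6.74 FPKM with siRNA 28 and siRNA 30, and in H2023 at 19.5 and 17.2 FPKM in the controls and 11.2 and 14.4 FPKM with siRNA 28 and siRNA 30, below both controls in each. TRIB3, a pseudokinase that restrains ATF4 output, was at 113 and 26.1 FPKM in the controls and 48.9 and 5.90 FPKM with siRNA 28 and siRNA 30 in H460, at 47.7 and 32.8 FPKM in the controls and 42.2 and 23.5 FPKM with siRNA 28 and siRNA 30 in H2023, and at 48.2 and 39.8 FPKM in the controls and 36.8 and 20.9 FPKM with siRNA 28 and siRNA 30 in A549. Its H460 log2 fold change was -1.58 with all libraries, -0.54 without control 0 and -0.15 without siRNA 30, so its value there rested on single libraries.

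DDIT4 (REDD1), an inhibitor of mTORC1, and VLDLR, a lipoprotein receptor that stress induces, had opposite signs in different lines. DDIT4 was at 79.2 and 81.8 FPKM in the controls and 44.7 and 22.6 FPKM with siRNA 28 and siRNA 30 in H2023 and at 192 and 94.7 FPKM in the controls and 209 and 221 FPKM with siRNA 28 and siRNA 30 in H460. On the log2 scale the change was -0.44 in A549, -1.31 in H2023 (limma adjusted p = 0.157) and 0.67 in H460, or 1.17 without control 0 and 0.16 without control 1. VLDLR was at 4.47 and 1.57 FPKM in the controls and 5.43 and 13.4 FPKM with siRNA 28 and siRNA 30 in H460, a log2 fold change of 1.36 (limma adjusted p = 0.121), or 1.91 without control 0, 0.82 without control 1 and 0.78 without siRNA 30, against -0.26 and -0.17 in the other lines. Tested for a difference between lines, DDIT4 had a limma adjusted p of 0.0871 and VLDLR of 0.172.

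The average effect over the 3 lines was tested in 1 fit of all 12 libraries, which shares their spread. Here 15 of the 36 members were lower and 1 higher, in a fit that called 14.5% of all genes lower and 15.2% higher. The 15 were the transporters SLC7A5, SLC1A5 and SLC7A1, the enzymes ASNS and CTH, ATF4, and the synthetases KARS1, EPRS1, IARS1, LARS1, WARS1, YARS1, HARS1, MARS1 and FARSB. SLC38A2 was the one that rose. The average log2 fold change was -1.17 ± 0.12 for SLC7A5 (SE, limma adjusted p = 0.000198), -1.12 ± 0.21 for ASNS (limma adjusted p = 0.00358), -0.97 ± 0.18 for CTH (limma adjusted p = 0.00349) and -0.82 ± 0.17 for ATF4 (limma adjusted p = 0.00606). The 9 synthetases called lay between -0.86 (YARS1) and -0.35 (FARSB), and SLC38A2 was at 0.72 ± 0.18 (limma adjusted p = 0.0144). Over 20 alternatives the call was lost in 11 for FARSB and MARS1 and in 10 for HARS1, against 1 for EPRS1, IARS1, KARS1 and LARS1 and 2 for WARS1 and YARS1. The median over the members was -0.43 and over all genes -0.01. Without H460 control 0, 13 members were lower and 2 (SLC38A2 and SLC1A4) higher, when 10.6% of all genes were lower and 13% higher.

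With H460 left out altogether, an alternative chosen after its controls had been seen, the average over A549 and H2023 called 5 members lower, namely SLC7A5, ASNS, CTH, ATF4 and DDIT4, and SLC38A2 higher. Of all genes, 3.4% were lower and 4.69% higher in that fit. None of the synthetases was called in that average. KARS1, for example, was then at -0.29 and SLC7A1 at -0.09, whereas SLC7A5 was at -0.84, ASNS at -0.79 and ATF4 at -0.62.

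The effect differed between lines for 2 members, FARSA and SLC7A1, by limma's F test of the difference (adjusted p = 0.0414 and 0.0448), which called 2.51% of all genes. FARSA (chromosome 19, 13033293 to 13044851, minus strand) was at 55.4 and 51.5 FPKM in the controls and 51.3 and 55.0 FPKM with siRNA 28 and siRNA 30 in A549. In H2023 it was at 76.2 and 76.6 FPKM in the controls and 102 and 107 FPKM with siRNA 28 and siRNA 30, above both controls, and in H460 at 166 and 132 FPKM in the controls and 91.6 and 74.6 FPKM with siRNA 28 and siRNA 30, below both. Its log2 fold changes were -0.01, 0.45 and -0.83 in A549, H2023 and H460, the last of which was -0.67 without control 0. In H2023 the FARSB value was -0.11. SLC7A1 fell in H460 and was close to 0 in the others, as given above. At an unadjusted p under 0.05 the effect differed for 13 members and for 21.2% of all genes. Without H460 control 0 the adjusted p was 0.146 for FARSA and 0.147 for SLC7A1, and over 19 alternatives the threshold was missed in 13 for FARSA and 14 for SLC7A1.

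The siRNAs were compared in the 6 knockdown libraries with line as a covariate. In every line siRNA 28 was the library numbered 0 and siRNA 30 the library numbered 1, so siRNA and library number cannot be told apart. Among the controls, which hold no NRF2 siRNA, control 0 was above control 1 for 28, 28 and 32 of the 36 members in A549, H2023 and H460. For all genes the shares were 69.6%, 52.8% and 54.8%. No member passed (all genes 0% in each direction), and 8 members had an unadjusted p under 0.05, each higher with siRNA 28. Over all 15716 genes, 7.08% were lower and 11.1% higher with siRNA 28 at that level (1112 and 1741 genes). Of the 36 members, 28 were higher with siRNA 28, as were 52.7% of all genes, with a median log2 difference of 0.14 (all genes 0.02). The largest differences were 1.49 ± 0.43 for TRIB3 (SE, limma adjusted p = 0.189), 0.78 ± 0.25 for CBS (limma adjusted p = 0.213) and 0.72 ± 0.15 for YARS1 (limma adjusted p = 0.137). NFE2L2 was at 5.31 FPKM with siRNA 28 and 7.84 FPKM with siRNA 30 in A549, 7.74 and 6.80 FPKM in H2023, and 6.54 and 12.2 FPKM in H460. The lower siRNA for the target was thus siRNA 28 in A549 and H460 and siRNA 30 in H2023.

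Other genes of the pathway were taken from lists by function. The mitochondrial synthetases, which are encoded in the nucleus and charge tRNA inside mitochondria, had a median of -0.10 in A549, of -0.06 in H2023 and of -0.51 in H460, and 0 of 17 passed in any line. At an unadjusted p under 0.05, 1 was higher in A549 (8.27% of all genes), with 0 in either direction in H2023 (6.68% lower and 10.2% higher) and 6 lower in H460, where 16.7% of all genes were lower and 17% higher at that level. In the average effect 4 of 17 were lower, NARS2 (-0.41, limma adjusted p = 0.0212), LARS2, HARS2 and EARS2, beside 14.5% of all genes. Their summed level was 439 and 395 FPKM in the H460 controls and 352 and 302 FPKM in the knockdown. The H460 controls were closer in these genes, with a median gap of 0.08, than in the cytosolic synthetases, at 0.45, and whether the groups of synthetases differ in response was not tested. The H460 median of the mitochondrial synthetases without control 0 was -0.45.

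Of 7 other genes of tRNA charging, AIMP2 and AIMP1, scaffold proteins of the multisynthetase complex, were lower in H460, at -1.09 and -0.95 (limma adjusted p = 0.0349 and 0.0452), and at -0.93 and -0.87 without control 0. In the average effect AIMP2 (-0.46) and EEF1E1 (-0.40), a further scaffold protein, were lower. Of all genes 6.86% were lower in H460 and 14.5% in the average effect. In A549 and H2023 0 of the 7 passed, and their medians were -0.04 and 0.03. Of 15 genes of the eIF2 arm, 2 were lower in H460 and 3 in the average effect, beside 6.86% and 14.5% of all genes. They included GCN1, which activates GCN2 (-0.98 in H460, limma adjusted p = 0.0381), EIF2B3, a subunit of the exchange factor of eIF2 (-1.18, limma adjusted p = 0.0339), and EIF2S2, the beta subunit of eIF2 (-0.88 on average, limma adjusted p = 0.0217). With control 0 left out, the H460 values were -0.85 for GCN1, -1.10 for EIF2B3 and -1.11 for EIF2S2. In A549 and H2023 0 of the 15 passed, beside 0.554% and 0.583% of all genes called lower, and the medians were -0.04 and 0.13. In H2023 4 of the 15 were below 0, against 48% of all genes. GCN1 was at -0.41 in A549 and 0.30 in H2023. Its effect differed between lines (limma F test, adjusted p = 0.0482), as it did for 2.51% of all genes.

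The 22 other genes known to follow ATF4 had a median of -0.43 in A549, of -0.23 in H2023 and of -1.0 in H460, and 3, 1 and 5 of them were lower in the 3 lines and 0 higher. Of all genes 0.554%, 0.583% and 6.86% were lower in A549, H2023 and H460, and 0.122%, 0.327% and 7.12% higher. The H460 controls differed here too, with control 0 above control 1 for 21 of 22 genes by a median of 0.93, and 9 gaps over 1. Without control 0 the H460 median was -0.48, with 14 of 22 below 0. CEBPB, a partner of ATF4 in its dimers, fell in all 3, with a change of -1.6 in A549, of -1.63 in H2023 and of -1.5 in H460 on the log2 scale (limma adjusted p = 0.00946, 0.0474 and 0.0397). SLC7A11 (xCT), the cystine importer and a direct target of NRF2 as well, was at -2.44, -2.25 and -2.10, and passed in A549 and H460. SLC3A2 (4F2hc), the heavy chain that pairs with both SLC7A5 and SLC7A11, was at 279.7 and 156 FPKM in the H460 controls and 61.6 and 77.8 FPKM in the knockdown. Its log2 fold changes were -0.89, -0.75 and -1.58, of which the H460 value passed (limma adjusted p = 0.0314). MTHFD2, a mitochondrial enzyme of the folate cycle, was at -2.42 in H460 (limma adjusted p = 0.0178). The H460 values without control 0 of CEBPB, SLC7A11, SLC3A2 and MTHFD2 were -1.27, -2.13, -1.16 and -1.95.

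Genes of the endoplasmic reticulum that answer to unfolded protein through ATF6 and XBP1 were not called lower in any line. Most are chaperones, but the list is mixed and holds XBP1 itself. Of 16 tested, 0 passed in A549 or H2023, where 9 and 2 were higher at an unadjusted p under 0.05 (8.27% and 10.2% of all genes), and 1, CRELD2, was higher in H460 (0.99, limma adjusted p = 0.0412), as were 7.12% of all genes. In the average effect 4 were higher, CRELD2 (0.69), DNAJB11 (0.55), DNAJC3 (0.55) and PDIA6 (0.51), and 0 lower, beside 15.2% and 14.5% of all genes. Their medians were 0.43, 0.13 and 0.10 in A549, H2023 and H460, and 0.42 in H460 without control 0, when CRELD2 was at 1.05.

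Other amino acid transporters were divided. In H460, where 6.86% of all genes were lower and 7.12% higher, 4 of 13 tested were lower, among them SLC36A1, a lysosomal and plasma membrane carrier (-1.25, limma adjusted p = 0.0297), and 1 was higher, SLC38A10 (1.25, limma adjusted p = 0.0406). No other transporter passed in A549 or H2023, of 12 and 11 tested. At an unadjusted p under 0.05, 1 was lower and 1 higher in A549 (4.99% and 8.27% of all genes) and 3 lower and 3 higher in H2023 (6.68% and 10.2%). Of the other amino acid enzymes, 2 of 14 passed in H460, both lower, and 0 of 15 in A549 and 0 of 16 in H2023, with 1 higher in A549 and 2 lower and 1 higher in H2023 at an unadjusted p under 0.05. Those in H460 were GOT2, the mitochondrial aspartate transaminase (-1.17, limma adjusted p = 0.0243), and AHCY, which cleaves S-adenosylhomocysteine (-0.96, limma adjusted p = 0.043). Without control 0, GOT2 was at -1.12, AHCY at -0.84, SLC36A1 at -1.35 and SLC38A10 at 1.07.

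**Figure D5:**
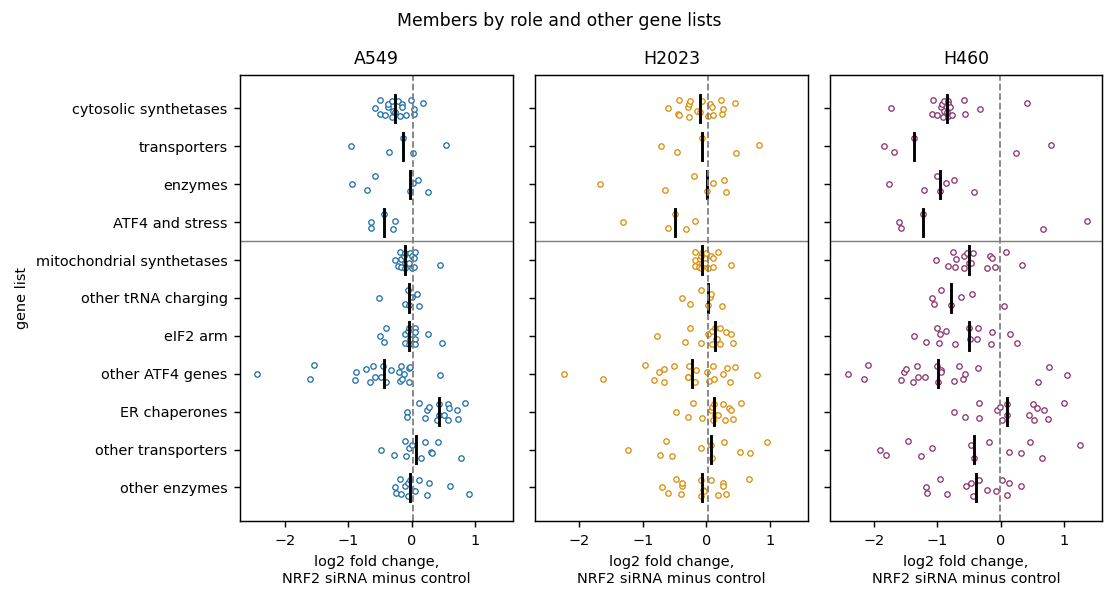
Log2 fold change (NRF2 siRNA minus control) of the members by role, above the grey line, and of the other gene lists below it, in each line. Each circle is 1 gene that was tested, black bars are medians of a list and dashed lines are medians over all genes tested. In H460 the cytosolic synthetases have a median of -0.85, the mitochondrial ones of -0.51 and the list marked ER chaperones of 0.10.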

How the data were processed

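RNA was measured in 12 libraries, 2 in each of 6 groups of line and siRNA. The authors deposited 1 table of FPKM per library. The study's methods name hg19, TopHat Alignment and Cufflinks, whereas the submitters' processing notes list STAR 2.5.3a, cutadapt 1.15, Cuffnorm, HTSeq and DESeq2 with GRCh37.p13, and which of these made the FPKM is not settled. FPKM is already scaled to length and library size, hides depth and shares reads of similar transcripts by estimate. Tables of the authors' own DESeq2 comparisons (mean counts, fold changes and p-values) were not used.

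FPKM under 1e-06 was set to 0. Genes with FPKM of at least 1 in at least 2 of a line's 4 libraries were tested in limma 3.58.1 (R 4.3.3) on log2(FPKM + 1), which understates changes of low genes, with a trend in the prior variance, Benjamini-Hochberg adjustment and a threshold of 0.05. The average effect and the difference between lines used 12 libraries, 6 group means and genes passing the filter in every line. Scripts (Python 3.11.15) were tested on simulated data, where the share of false calls was above the threshold, so adjusted p-values are too small. Of simulated 2-fold changes 68% were called in A549, 30% in H2023, 20.6% in H460 and 2.4% in the test of the difference between lines. A gene that was not called may therefore still have changed or differed. Identifiers were matched to symbols without version (96.1%), and gene positions are from GENCODE lifted to GRCh37, for whole genes. Alternatives were pseudocount, filter, variance trend, scaling, a replicate block, 1 fit of all libraries and leaving out libraries. Every member may be named, with values per library for those past the threshold, for ATF4 and for the 5 largest mean changes (FARSA, GARS1, DDIT3, DDIT4 and VLDLR were added after their values were seen), and of each other list up to 4 genes with the smallest p of the average effect. The members and lists were chosen with earlier results of these data known.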

Additional observations from a re-analysis of the deposited data

Results flagged for a closer look

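The effect of NRF2 siRNA differed between lines for 2 members by limma's F test of the difference. FARSA, the alpha subunit of phenylalanyl-tRNA synthetase, had an adjusted p of 0.0414, at a log2 fold change of -0.01 in A549, of 0.45 in H2023 and of -0.83 in H460. SLC7A1, the arginine and lysine transporter, had an adjusted p of 0.0448, with -0.13, -0.06 and -1.68. Over the alternatives the adjusted p ranged from 0.0233 to 0.146 for FARSA and from 0.0292 to 0.147 for SLC7A1, and both were highest without H460 control 0. The threshold was missed in 13 of 19 alternatives for FARSA and in 14 of 19 for SLC7A1.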

How the results depend on the processing

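Of 478 alternative values of 28 single-gene results that had passed, 108 no longer did. None of the fold changes among them changed sign, whereas DDIT3, SARS1 and CARS1, which had not passed, did so in H460 without control 0. FPKM gives no depth, and with 2 libraries a group the counts of members called moved with single libraries. Leaving out 1 library at a time gave 0 to 2 members lower in A549, 0 to 6 lower and 0 to 1 higher in H2023, 0 to 18 lower and 0 to 1 higher in H460, 12 to 21 lower and 1 to 2 higher in the average effect, and 0 to 4 that differed between lines. H460 gave 0 lower without either control and 18 without siRNA 28 (VLDLR then higher), when 13.7% of all genes were lower. A549 gave 2 without siRNA 28 (1.43% of all genes). H2023 gave 6 without siRNA 28 (5.91%) and 3 without siRNA 30 (4.78%), with SLC38A2 higher in both. The median over members ranged from -0.34 to -0.21 in A549, -0.31 to -0.037 in H2023 and -1.26 to -0.52 in H460. With no filter on low values 0 members were lower in H460, 0 were higher in the average effect and no gene passed in any line. With a pseudocount of 0.1, or with no trend in the prior variance, 4 were lower in H460, and with no trend 0 differed between lines. One fit of all 12 libraries gave 22 lower and 1 higher in H460 (17.8% and 15.5% of all genes) and 1 lower in H2023 (1.75%). Requiring FPKM of at least 1 in every library, or median-ratio scaling, gave 1 lower in A549 (SLC7A5). With the siRNA compared within line in all 12 libraries, 1 member (HARS1) was higher with siRNA 28. The average over A549 and H2023 gave 5 lower.

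Leaving out mitochondrial transcripts moved the median of all genes to 0.12 in H460, 0.10 in H2023 and -0.07 in A549. The median over members was then -0.37 in A549, -0.07 in H2023 and -0.74 in H460, and 0 members differed between lines. Of all genes called, 32.9% were then lower in H460, against 49.1%. Same-numbered libraries deviated with a correlation of -0.03 in A549, of 0.31 in H2023 and of 0.16 in H460, and since not every one was over 0.1 the numbers were not taken to pair the samples. In the knockdown groups the number is also the siRNA, so a block by number holds both. With the number as a replicate block, 2 members were lower and 1 higher in H2023 (2.12% and 2.94% of all genes), 22 lower and 1 higher in H460 (11.4% and 12.2%) and 0 differed between lines, and of all genes called in H2023 41.9% were lower, against 64.1%.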
